A study of Mus musculus with 6 samples.

Results

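The 10 integrin genes of T cells described here are Itgae, Itgav, Itga4, Itgal and Itga2b, which encode alpha chains, and Itgb7, Itgb8, Itgb3, Itgb1 and Itgb2, which encode beta chains. They were chosen by gene name among the 49585 genes of the series table, and all 10 were found and tested. The libraries were made from poly(A) RNA of splenic regulatory T cells (Tregs) of C57BL/6 mice aged 7 weeks, sorted as B220-, CD4+ and YFP+ cells (the design text adds CD25+) and stimulated for 24 hours with plate-bound antibodies to CD3 and CD28. There were 3 libraries with the genotype Bach2-cKO and 3 with the genotype WT. BACH2 is a transcriptional repressor of the basic leucine zipper family. The label Bach2-cKO does not say which cells lack BACH2, both groups were sorted for YFP, and the labels do not name the promoter that drives YFP or a Cre. They do not say whether the 3 libraries of a group came from separate mice, so p-values measure the spread between these samples only, which may be technical.

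Integrins are adhesion receptors built from 1 alpha and 1 beta chain, and each chain reaches the cell surface only with a partner. In T cells they slow cells on vessel walls, hold them at the contact with antigen-presenting cells and keep them in tissues. Some also bind latent TGF-beta and release the active cytokine, a step in which Treg integrins with the alpha-v chain take part. At the surface most integrins are bent and inactive, and signals from the T cell receptor or chemokine receptors open them through RAP1 GTPases, talin and kindlin.

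Read totals recovered from the deposited values were between 27703735 and 31976067 in the Bach2-cKO libraries and between 27697735 and 43884431 in the WT libraries. The integrin genes had between 91 and 28485 reads in a library. Bach2 itself had 88.9, 104.5 and 120.8 FPKM, a read count divided by gene length and library size, in the Bach2-cKO libraries, against 112.0, 111.4 and 99.4 FPKM in the WT libraries. Which part of the gene was deleted is not stated, and the label cannot be checked by this level. Treg genes were present in every library, with Foxp3 between 104.2 and 153.5 FPKM in Bach2-cKO and between 107.6 and 127.3 FPKM in WT. Of the 5 Treg markers 1 rose, Il2ra (458.3 to 502.1 FPKM in Bach2-cKO, against 230.3 to 300.8 FPKM in WT; limma adjusted p = 0.00186), and Ikzf2 averaged 197.0 FPKM in Bach2-cKO and 264.3 FPKM in WT without passing. Of 7 T cell markers 3 fell, Cd3d, Cd3g and Cd5, and the 7 summed to between 1545 and 1864 FPKM in Bach2-cKO and between 2007 and 2233 FPKM in WT; 1 fell without Bach2-cKO replicate 1 or 2 or WT replicate 2 or 3, and 5 fell without Bach2-cKO replicate 3. The part of these shifts in the integrin values was not tested. All 12 B cell markers were present as well, although B220- cells were sorted. Their summed level was between 1781 and 2287 FPKM in Bach2-cKO libraries and between 1255 and 1770 FPKM in WT libraries. B cells also express several integrin genes, and in such bulk samples fewer cells of a type and less RNA per cell cannot be told apart.

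The 3 integrin genes that rose in the Bach2-cKO libraries were Itgb3, Itgae and Itgav, and the 1 that fell was Itga2b, the alpha chain that pairs with Itgb3. The other 6, Itgb2, Itgal, Itga4, Itgb1, Itgb7 and Itgb8, did not pass the test (limma on log2(FPKM + 1); threshold 0.05 for the p-value after Benjamini-Hochberg adjustment over 13766 genes). The share called was 40.0% of the 10 integrin genes, against 15.3% of all genes tested, where 7.02% were higher and 8.31% lower. The genes were chosen with earlier results of these data known, so their share is a description only. The groups did not overlap for 5 of the 10, 4 higher and 1 lower, where 35.6% of all genes tested did not overlap, 15.5% higher and 20.1% lower. The median log2 fold change of the 10 was -0.02, the same to this precision as that of all tested genes, -0.02. The 3 rises and the 1 fall were also called with any single library left out. The B cell marker level, a mean of centred log2 values, was 0.0596, 0.392 and 0.199 in Bach2-cKO libraries and -0.382, 0.0513 and -0.321 in WT libraries. Every Bach2-cKO library lay above every WT library in it, so its part and that of genotype cannot be told apart. With this level in the model the log2 fold changes of Itgb3, Itgae and Itgav were 1.43, 1.34 and 0.73, all called (limma adjusted p = 0.03, 0.0419 and 0.0459). These were the highest adjusted p of the 14 alternatives for each gene, and the lowest were 0.000222, 0.000314 and 0.00352.

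**Figure D1:**
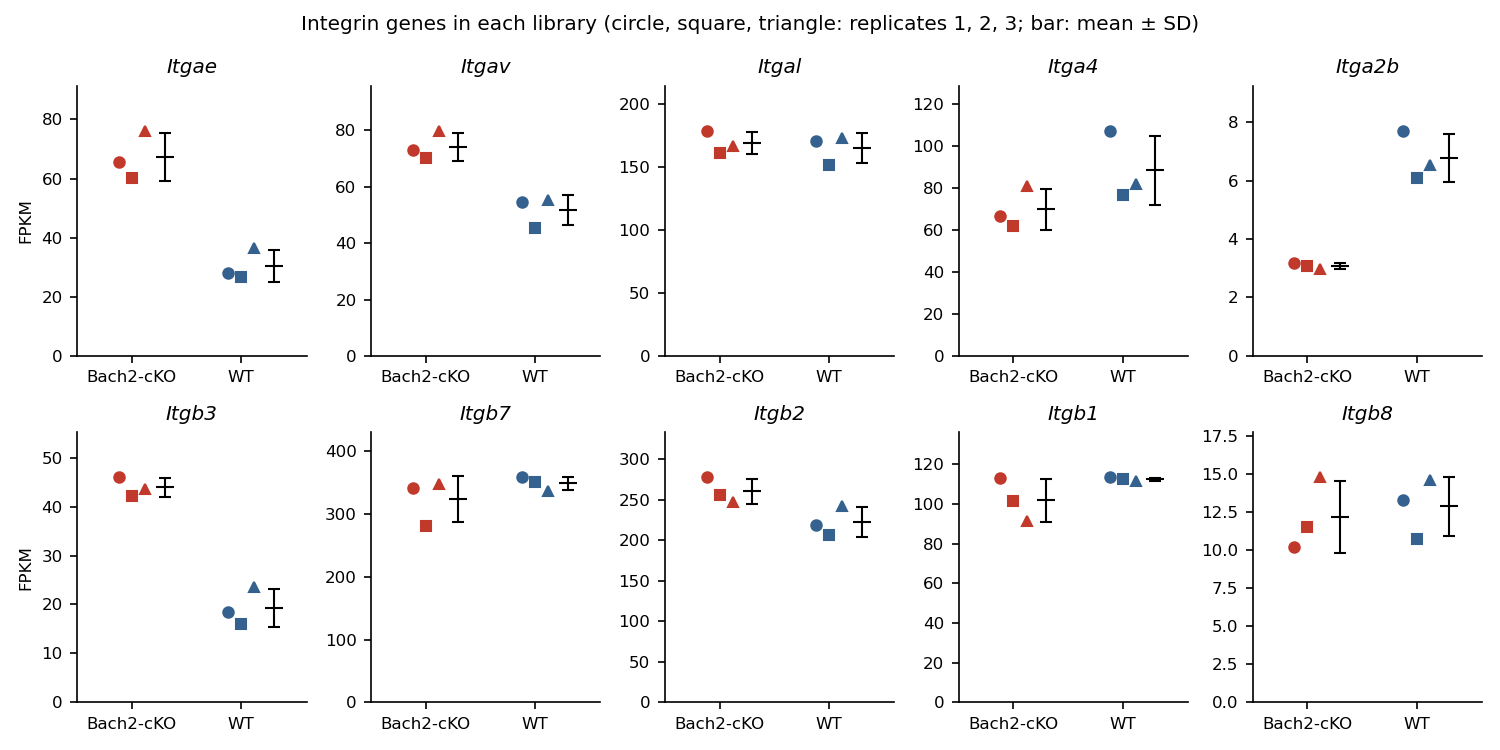
FPKM of the 10 integrin genes in each library, Bach2-cKO (red) left of WT (blue), with alpha chains in the upper row; symbols mark replicates 1, 2 and 3 and bars the mean ± SD (n = 3). The groups are apart for Itgae, Itgav, Itga2b, Itgb3 and Itgb2 and overlap for the other 5.

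Promoter sequence was at hand in the RefSeq table (GRCm38.p6; 250 bases before to 50 after the start) for 6 of the 10 genes: Itga4, Itgav, Itgb1, Itga2b, Itgb8 and Itgb7. The other 4, Itgae, Itgb3, Itgal and Itgb2, were not matched. The 2 windows printed here belong to the 2 called genes with an entry, Itgav, which rose, and Itga2b, which fell, and are shown because BACH2 binds DNA with small MAF proteins at MAF recognition elements. Capitals mark a match on either strand to TGANTCA, the core of such an element, which AP-1 also binds, to TGCTGA, its outer part, or to TGTGGT, the core bound by RUNX factors. In a whole element TGCTGA and TGANTCA share the letters TGA.
Itgav, chr2:83724147-83724446, plus strand: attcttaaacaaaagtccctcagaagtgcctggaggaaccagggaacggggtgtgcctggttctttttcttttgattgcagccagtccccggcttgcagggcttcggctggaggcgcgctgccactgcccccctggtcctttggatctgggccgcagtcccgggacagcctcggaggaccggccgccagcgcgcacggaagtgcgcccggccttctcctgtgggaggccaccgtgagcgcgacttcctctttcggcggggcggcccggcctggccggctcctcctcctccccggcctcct
Itga2b, chr11:102469834-102470133, minus strand: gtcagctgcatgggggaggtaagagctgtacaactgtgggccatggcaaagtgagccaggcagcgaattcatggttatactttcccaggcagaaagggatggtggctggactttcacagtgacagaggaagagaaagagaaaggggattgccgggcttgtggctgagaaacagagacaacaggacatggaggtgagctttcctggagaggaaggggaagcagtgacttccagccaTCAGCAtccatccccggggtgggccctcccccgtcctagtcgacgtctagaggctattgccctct
The Itga2b window held TGCTGA once, on the opposite strand, 15 bases before the RefSeq start, and the Itgav window held none of the 3. The deposited position of Itga2b begins further upstream, at 102470122, so nearly all of its window, the match included, lies inside the gene by that position. The Itgb8 window lies wholly inside the deposited position of its gene. TGANTCA was in none of the 6 windows and in 7.81% of 32851 promoter windows of this length, while TGCTGA was in 19.5% and TGTGGT in 16.8% of them. Itga4 had TGTGGT once and Itgb1, Itgb8 and Itgb7 had none of the 3. These matches describe letters in a short window only.

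Itgae encodes alpha-E (CD103), which with beta-7 binds E-cadherin on epithelial cells and is known from tissue Tregs and CD8 T cells. The gene lies on chromosome 11 from 73090583 to 73147446 (GRCm38). Its level was 65.5, 60.1 and 76.1 FPKM in the Bach2-cKO libraries, against 27.9, 26.8 and 36.6 FPKM in the WT libraries. Every Bach2-cKO library lay above every WT library. The means were 67.2 ± 8.16 FPKM in Bach2-cKO and 30.4 ± 5.36 FPKM in WT (SD, n = 3 each; log2 fold change 1.13, SE 0.13, limma adjusted p = 0.0021). In intron sequence of Itgae, on the other strand, lies Haspin, a mitotic kinase gene, which shares no exon base with it and was higher too (17.6, 16.6 and 17.8 FPKM in Bach2-cKO, against 9.96, 10.4 and 11.6 FPKM in WT). The labels do not say whether counting used strand.

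The partner gene Itgb7, on chromosome 15 from 102215995 to 102231935, was the most abundant of the 10. It had 341.7, 281.5 and 348.8 FPKM in Bach2-cKO libraries, against 358.5, 351.6 and 337.5 FPKM in WT libraries, and the groups overlapped (log2 fold change -0.11, SE 0.09, limma adjusted p = 0.437). The Itgae level per unit of Itgb7 was 0.192, 0.213 and 0.218 in Bach2-cKO and 0.0778, 0.0761 and 0.108 in WT. These ratios did not overlap, and their log2 values averaged -2.27 ± 0.0995 in Bach2-cKO and -3.53 ± 0.285 in WT (SD, n = 3 each). The difference was 1.27 (exact two-sided permutation p = 0.10, the smallest that 3 against 3 libraries allow; adjusted over 8 pairs 0.133).

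Cells other than Tregs that carry alpha-E were looked for through their markers. Cd8a, a marker of CD8 T cells, was at 46.4, 37.8 and 25.2 FPKM in Bach2-cKO, against 19.4, 21.8 and 18.7 FPKM in WT, and Cd8b1 was at 52.9, 42.2 and 28.6 FPKM, against 21.9, 22.4 and 21.5 FPKM. Both passed the test with a rise, but neither without Bach2-cKO replicate 2 or WT replicate 1, 2 or 3, and 1 of them without Bach2-cKO replicate 1. Within the Bach2-cKO group Itgae was highest in replicate 3, where both CD8 genes were lowest, while replicate 1 exceeded replicate 2 in Itgae and both CD8 genes. No conclusion is drawn from the order of 3 libraries. Of 6 dendritic cell markers 3 were below 1 FPKM in every library, among them Clec9a. Xcr1, a marker of dendritic cells that carry CD103, was at 1.52, 1.56 and 1.69 FPKM in Bach2-cKO, against 0.461, 0.763 and 0.949 FPKM in WT (limma adjusted p = 0.0512). Xcr1 entered the test through its Bach2-cKO libraries only, since genes needed at least 1 FPKM in 3 libraries, so its groups could not overlap. Under median-ratio scaling, quantile normalization and limma-voom 1 dendritic cell marker rose. Flt3 fell (limma adjusted p = 0.0266), though not with any library other than Bach2-cKO replicate 1 left out. The 6 markers summed to between 16.8 and 21.3 FPKM in Bach2-cKO and between 21.1 and 25.8 FPKM in WT. Cells were sorted as CD4+, a gate meant to leave out CD8 T cells. The part of CD8 T cells or dendritic cells in the rise of Itgae was not tested.

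Itgav encodes alpha-v, the chain that recognises the RGD motif of latent TGF-beta, fibronectin and vitronectin. The gene lies on chromosome 2 from 83724397 to 83806916. It had 72.9, 70.0 and 79.8 FPKM in the Bach2-cKO libraries, against 54.5, 45.4 and 55.3 FPKM in the WT libraries. The groups were apart, with replicate 2 the lowest and replicate 3 the highest of each. The means were 74.2 ± 5.0 FPKM in Bach2-cKO and 51.7 ± 5.47 FPKM in WT (SD, n = 3 each; log2 fold change 0.52, SE 0.09, limma adjusted p = 0.00997).

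Itgb8 encodes beta-8, which with alpha-v activates latent TGF-beta on Tregs. The gene, on chromosome 12 from 119158022 to 119238802, was at 10.2, 11.5 and 14.8 FPKM in Bach2-cKO, against 13.3, 10.7 and 14.6 FPKM in WT. The groups overlapped almost wholly (log2 fold change -0.08, SE 0.16, limma adjusted p = 0.769). The Itgav level per unit of Itgb8 was thus 7.14, 6.09 and 5.40 in Bach2-cKO and 4.10, 4.24 and 3.79 in WT, without overlap.

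Around this integrin stood a list of 10 genes that make, hold or process latent TGF-beta, of which 6 were tested. Furin, the protease that cuts the TGF-beta precursor, rose by 0.46 on the log2 scale (limma adjusted p = 0.00580). Lrrc32, which encodes GARP, the protein that holds latent TGF-beta on Tregs, fell (84.0, 84.7 and 108.7 FPKM in Bach2-cKO, against 152.2, 128.5 and 139.9 FPKM in WT; limma adjusted p = 0.0119). The remaining 4 did not pass, and Tgfb1, the most abundant, was at 231.4, 223.6 and 236.7 FPKM, against 179.1, 219.4 and 184.3 FPKM (limma adjusted p = 0.0868). Without WT replicate 1 the fall of Lrrc32 was not called, and without WT replicate 2 the list had 2 rises.

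Itgb3 encodes beta-3, the partner of alpha-v in the vitronectin receptor and of alpha-IIb in the fibrinogen receptor of platelets. The gene lies on chromosome 11 from 104608000 to 104670476. Its level was 45.9, 42.2 and 43.5 FPKM in the Bach2-cKO libraries, against 18.4, 16.1 and 23.6 FPKM in the WT libraries. All 3 Bach2-cKO values lay close together and above WT, and WT replicate 3 was the highest of its group. The means were 43.9 ± 1.87 FPKM in Bach2-cKO and 19.4 ± 3.86 FPKM in WT (SD, n = 3 each; log2 fold change 1.16, SE 0.13, limma adjusted p = 0.00159). Itgb3 and Itgae had about the same log2 fold change, and Itgae had the larger one without Bach2-cKO replicate 1, Bach2-cKO replicate 2 or WT replicate 2.

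Itga2b encodes alpha-IIb (CD41), and its gene, on chromosome 11 from 102453297 to 102470122, lies 2.14 Mb from Itgb3. It was the weakest of the 10, with 97, 109 and 91 recovered reads in the Bach2-cKO libraries, against 373, 208 and 200 reads in the WT libraries. In FPKM this was 3.17, 3.09 and 2.97 in Bach2-cKO, against 7.70, 6.10 and 6.54 in WT, and the groups were apart. The means were 3.08 ± 0.103 FPKM in Bach2-cKO and 6.78 ± 0.826 FPKM in WT (SD, n = 3 each; log2 fold change -0.93, SE 0.12, limma adjusted p = 0.00279). The added 1 FPKM lessens this fold change, and the ratio of the means was 0.454. With the level of the B cell markers in each library added to the model, the log2 fold change was -0.77 with a larger SE, 0.19, and not called (limma adjusted p = 0.119, with 0.00255 to 0.119 over all 14 alternatives). That level was higher in every Bach2-cKO library than in every WT library, so its part and that of genotype cannot be told apart.

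Both chains of the platelet receptor thus moved in opposite directions. The Itga2b level per unit of Itgb3 was 0.0691, 0.0731 and 0.0682 in Bach2-cKO and 0.419, 0.380 and 0.277 in WT, a difference of -2.33 between the mean log2 ratios. This was the largest of the 8 pairs, with the same exact p = 0.10. Of 10 markers of platelets and megakaryocytes, 9 were below 1 FPKM in every library, and Gp1ba, the tenth, was at 0.612, 0.759 and 0.541 FPKM in Bach2-cKO, against 1.77, 1.32 and 1.07 FPKM in WT. Pf4, an abundant platelet gene, was listed at 0 in all 3 Bach2-cKO libraries and at 0.905, 0 and 0 FPKM in WT replicates 1, 2 and 3. Their sums were between 0.873 and 1.05 FPKM in Bach2-cKO and between 1.29 and 3.57 FPKM in WT. Gp1ba reached 1 FPKM in WT libraries only. The means of Tubb1, Gp5 and Ppbp were higher in Bach2-cKO and those of the other markers of this list lower, most of them near 0. The part of platelets or megakaryocytes in the level of Itga2b was not tested.

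The genes closest to Itgb3 and Itga2b in their course over the 6 libraries were found by the root-mean-square difference of centred log2(FPKM + 1) values, among 9322 genes with a symbol and a mean of at least 5 FPKM. For Itgb3 they were Nabp1 (0.07), Fgl2 (0.08), Hip1 (0.09) and Rbpj (0.10), each of which was higher in Bach2-cKO. Fgl2 had 67.4, 58.4 and 63.6 FPKM in Bach2-cKO, against 26.2, 21.7 and 29.3 FPKM in WT, and encodes a fibrinogen-like protein that Tregs secrete. For Itga2b they were Igf2r (0.07), Eya3 (0.08), Cmah (0.09) and Evl (0.09), each of which was lower in Bach2-cKO. The measure rests on 6 libraries in 2 groups, so it is set largely by the difference between the groups.

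Itga4 encodes alpha-4, which pairs with beta-1 to bind VCAM-1 on inflamed vessels and with beta-7 to bind MAdCAM-1 on gut vessels. The gene lies on chromosome 2 from 79255426 to 79333123, 4.39 Mb from Itgav. It had 66.8, 61.7 and 80.7 FPKM in Bach2-cKO libraries, against 107.0, 76.4 and 81.6 FPKM in WT libraries. WT replicate 1 stood above the other 5 libraries, while Bach2-cKO replicate 3 lay within the WT range (log2 fold change -0.33, SE 0.14, limma adjusted p = 0.167). Of its exon sequence 1124 bases are shared with Cerkl on the other strand, which was between 1.11 and 2.36 FPKM in Bach2-cKO and between 1.23 and 2.40 FPKM in WT.

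Itgb1 encodes beta-1, which joins many alpha chains in receptors for matrix and VCAM-1. The gene, on chromosome 8 from 128685654 to 128733200, was at 112.9, 101.3 and 91.2 FPKM in Bach2-cKO, against 113.3, 112.4 and 111.8 FPKM in WT. The WT libraries were nearly equal, with a coefficient of variation of 0.685%, while the Bach2-cKO libraries varied by 10.7%, and replicate 1 lay within the WT range (log2 fold change -0.15, SE 0.08, limma adjusted p = 0.259). The Itga4 level per unit of Itgb1 was 0.591, 0.609 and 0.886 in Bach2-cKO and 0.945, 0.680 and 0.730 in WT, and per unit of Itgb7 it was 0.195, 0.219 and 0.232, against 0.299, 0.217 and 0.242. Both sets of ratios overlapped.

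Itgal and Itgb2 encode alpha-L and beta-2, the chains of LFA-1, which binds ICAM-1 and holds T cells to antigen-presenting cells. Itgal, on chromosome 7 from 127296260 to 127335138, had 178.5, 161.2 and 166.5 FPKM in Bach2-cKO, against 170.4, 151.3 and 173.2 FPKM in WT. The groups overlapped (log2 fold change 0.03, SE 0.07, limma adjusted p = 0.796). Itgb2, on chromosome 10 from 77530252 to 77565708, had 277.4, 255.7 and 247.6 FPKM in Bach2-cKO, against 218.7, 206.0 and 242.2 FPKM in WT. Its groups were apart by a narrow margin, but the difference did not pass (log2 fold change 0.23, SE 0.08, limma adjusted p = 0.0926). The Itgal level per unit of Itgb2 was 0.643, 0.631 and 0.672 in Bach2-cKO and 0.779, 0.735 and 0.715 in WT, without overlap.

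The beta-2 chain has other partners, which mark myeloid cells. Itgam (alpha-M, CD11b) stayed at or below 0.528 FPKM in Bach2-cKO and 0.377 FPKM in WT, and was not tested. Itgax (alpha-X, CD11c) was at 4.62, 3.37 and 4.02 FPKM in Bach2-cKO, against 3.41, 1.51 and 1.2 FPKM in WT (limma adjusted p = 0.0867). The 8 myeloid markers summed to between 50.01 and 93.3 FPKM in Bach2-cKO and between 27.1 and 31.1 FPKM in WT, and 3 of them, including Csf1r, were below 1 FPKM in every library. S100a8 was at 3.08, 17.5 and 27.7 FPKM in Bach2-cKO, against 3.94, 4.21 and 5.14 FPKM in WT. S100a9 was at 2.73, 26.4 and 28.0 FPKM, against 4.81, 6.65 and 6.79 FPKM. Bach2-cKO replicate 1 thus lay below WT in both, and neither passed. The means of Cd14 and Csf1r were lower in Bach2-cKO and those of the other markers higher. Mpeg1, a macrophage gene and the most abundant of the 8, rose (41.9, 43.4 and 22.3 FPKM in Bach2-cKO, against 20.3, 12.6 and 13.9 FPKM in WT; limma adjusted p = 0.0308). The list had 0 rises without Bach2-cKO replicate 2 or WT replicate 2 or 3, and 3 without Bach2-cKO replicate 1. Adgre1 was at 0.963, 1.29 and 1.09 FPKM in Bach2-cKO, against 0.458, 0.589 and 0.351 FPKM in WT, and was not tested. The part of myeloid cells in the level of Itgb2 was not tested.

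**Figure D2:**
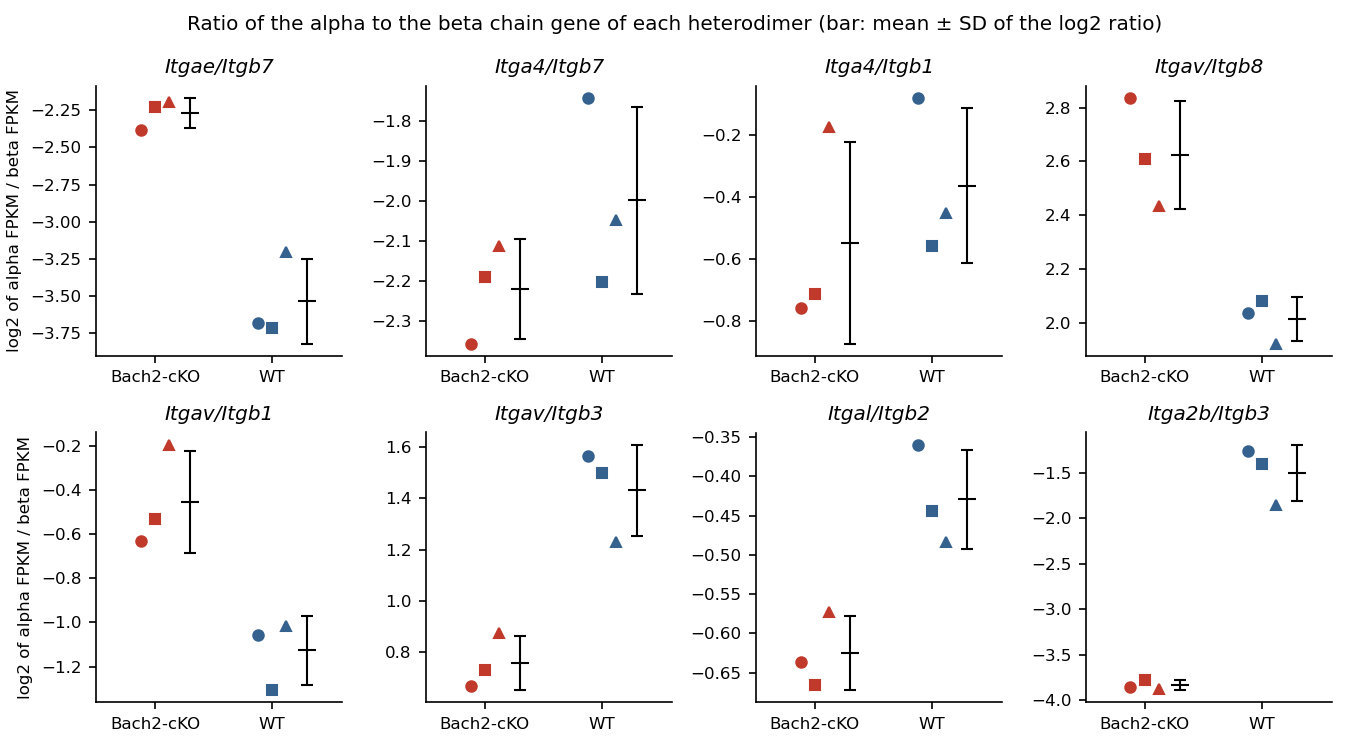
Log2 ratio of the alpha to the beta chain gene for 8 heterodimers, by library, Bach2-cKO (red) left of WT (blue), with bars for the mean ± SD (n = 3); each panel has its own scale. The groups are apart in 6 pairs, and overlap for Itga4/Itgb7 and Itga4/Itgb1. Of single genes tested 35.6% were apart, and no such share was computed for pairs of genes.

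Across the 8 known heterodimers the ratio of alpha to beta chain was higher in all Bach2-cKO libraries for Itgae/Itgb7, Itgav/Itgb8 and Itgav/Itgb1 and lower in all of them for Itgav/Itgb3, Itgal/Itgb2 and Itga2b/Itgb3. Each of these 6 reached the exact p = 0.10 that is the smallest 3 against 3 libraries can give (adjusted over the 8 pairs 0.133), so none could pass at 0.05. The mean log2 ratio of Itgav to Itgb1 was -0.45 ± 0.230 in Bach2-cKO and -1.13 ± 0.158 in WT (SD, n = 3 each), and that of Itgav to Itgb3 was 0.76 ± 0.107 in Bach2-cKO and 1.43 ± 0.179 in WT. A ratio of messages says nothing of how much of each receptor stood at the surface. Pairs that share a chain are not independent of each other. Apart from Itgal/Itgb2, each of the 6 pairs holds a called gene. Of single genes tested 35.6% did not overlap, and the share among all pairs of genes was not computed, so the 6 are a description only.

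Levels of different genes can be compared only per length, and here the length used matters. For 9 of the 10 integrin genes the recovered length equals the rounded mean over all annotated isoforms of the gene in GENCODE M21, short fragments included, and Itgb7 is the exception. Itga2b was thus scaled to 1104 bases, whereas its longest isoform has 3437. In the deposited FPKM, WT libraries ranked Itgb7, Itgb2, Itgal, Itgb1, Itga4, Itgav, Itgae, Itgb3, Itgb8 and Itga2b from high to low, and no neighbours in this order overlapped. The Bach2-cKO libraries had the same order except that Itgav stood before Itga4, and there the ranges of Itgav, Itga4 and Itgae ran into each other.

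Rescaled to the longest annotated isoform, Itgae was at 67.1 ± 8.14 FPKM in Bach2-cKO and 30.3 ± 5.35 FPKM in WT (SD, n = 3 each). On that scale it ranked 4 of 10 in Bach2-cKO and 6 of 10 in WT, whereas in the deposited FPKM it ranked 7 in both groups. Itgav fell behind it, with 25.3 ± 1.70 FPKM in Bach2-cKO and 17.6 ± 1.86 FPKM in WT. Itgb3 ranked 6 in Bach2-cKO and 8 in WT on the longest isoform. The 3 highest genes, Itgb7, Itgb2 and Itgal, and the 2 lowest, Itgb8 and Itga2b, kept their places in both groups on both scales. Fold changes between the groups do not depend on the length, apart from the effect of the added 1 FPKM.

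**Figure D3:**
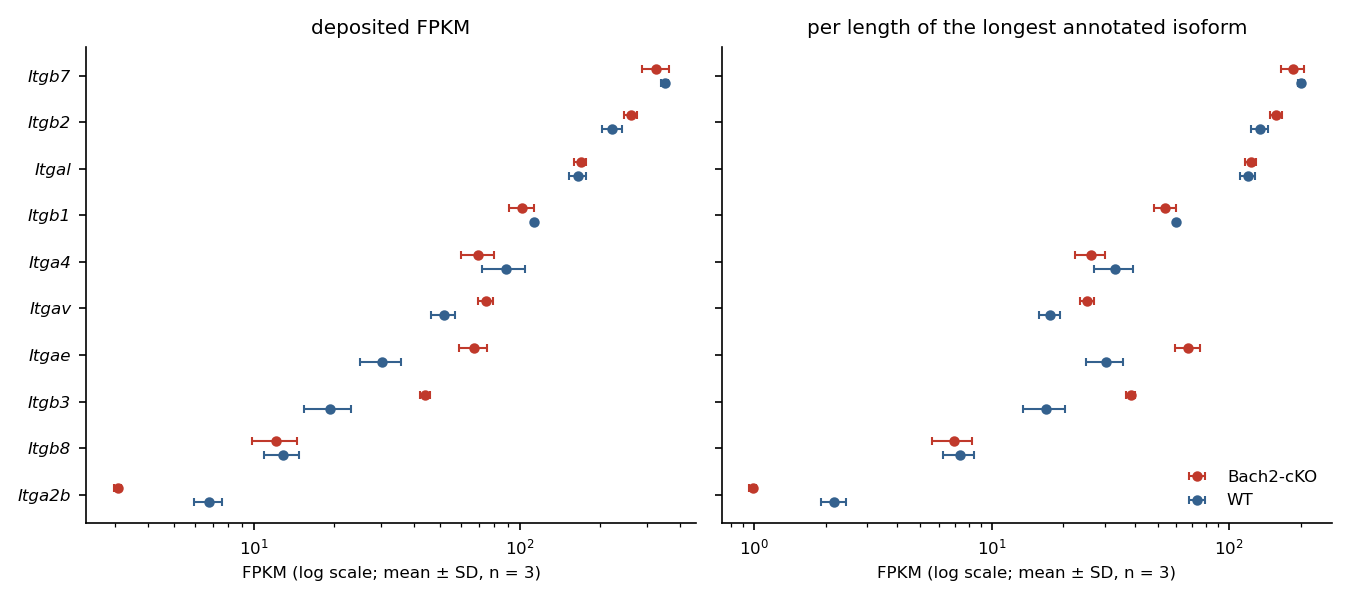
Mean ± SD (n = 3) of the 10 integrin genes in Bach2-cKO (red, upper point of each row) and WT (blue), as deposited (left) and per length of the longest annotated isoform (right), on log axes. Itgae in Bach2-cKO lies beside Itgav and Itga4 on the left and above both on the right.

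Expressed as a share of the summed FPKM of the 5 alpha chain genes, Itgae made up 17.5% ± 1.06 in Bach2-cKO and 8.90% ± 1.39 in WT (SD, n = 3 each). On the longest isoform its share was 27.6% ± 1.81 in Bach2-cKO and 14.9% ± 2.0 in WT. Itgal held the largest share in every library, at 44.1% ± 2.75 in Bach2-cKO and 48.3% ± 1.67 in WT as deposited. The share of Itga4 was 18.2% ± 1.5 in Bach2-cKO and 25.7% ± 3.08 in WT. Among the 5 beta chain genes Itgb3 made up 5.92% ± 0.156 in Bach2-cKO and 2.69% ± 0.482 in WT, and Itgb7 43.6% ± 3.05 in Bach2-cKO and 48.8% ± 2.23 in WT. Shares within a sum fall for a gene when another rises, so they show unequal levels only.

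**Figure D4:**
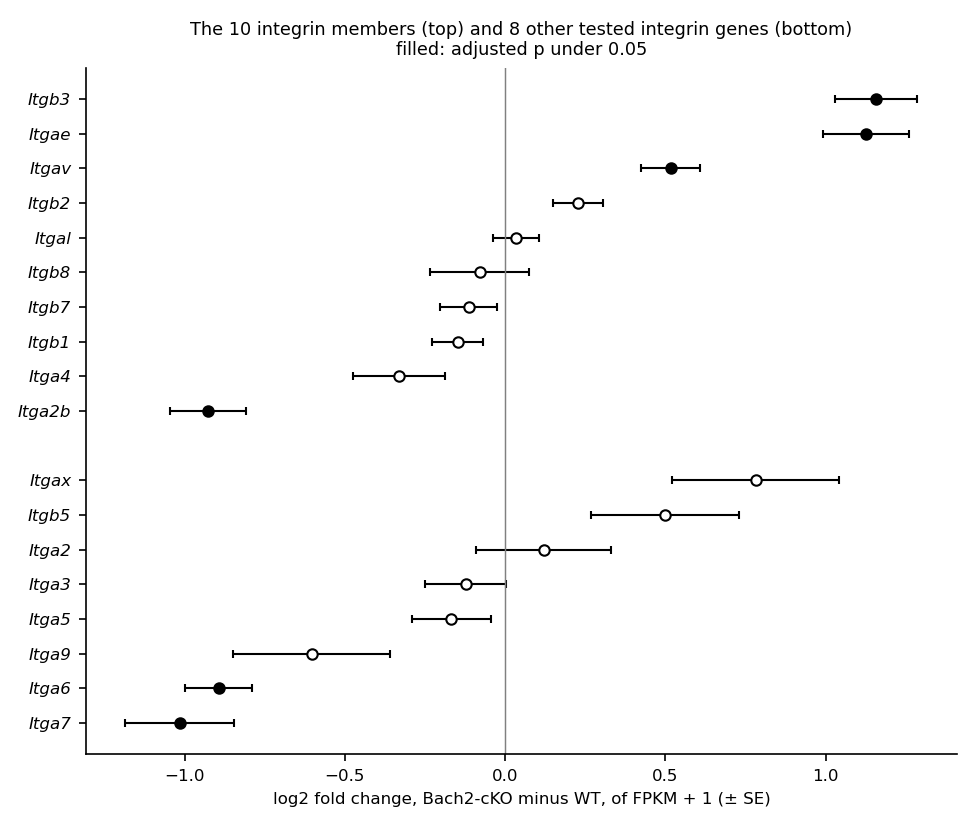
Log2 fold change (Bach2-cKO minus WT, of FPKM + 1) with its SE for the 10 integrin genes (top) and the 8 other integrin genes that were tested (bottom); filled points passed at an adjusted p under 0.05. Itgb3, Itgae and Itgav lie to the right, and Itga2b, Itga6 and Itga7 to the left.

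Among 17 other integrin genes 8 were tested, of which 2 fell and 0 rose (limma; 3 had an unadjusted p under 0.05 with a lower and 1 with a higher value; limma-voom also gave 0 rises). Itga6, which encodes alpha-6, a laminin receptor chain, had 42.0, 40.8 and 52.1 FPKM in Bach2-cKO, against 86.4, 76.9 and 89.0 FPKM in WT. Its 3 Bach2-cKO values were all below WT (log2 fold change -0.89, SE 0.10, limma adjusted p = 0.00198). Itga7, another laminin receptor chain, was weak, with 0.441, 0.187 and 0.314 FPKM in Bach2-cKO, against 1.36, 1.80 and 1.82 FPKM in WT (limma adjusted p = 0.00785). Itga7 entered the test through its WT libraries only, since genes needed at least 1 FPKM in 3 libraries. Leaving out any WT library therefore removed Itga7 from the test. Without Bach2-cKO replicate 3 the number that fell was 3, and 1 rose without WT replicate 1.

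Calls in this and the other 6 pathway lists were fewer with the B cell marker level in the model. There 0 genes of the 7 lists rose and 1, an activator, fell, against 9 rises and 14 falls without it. Calls over all 13766 genes tested were fewer as well, 94 higher and 101 lower, against 967 and 1144 without it, so the drop is not particular to these lists. Without that level in the model, the share called was 33.3% of tested genes each for activators, inhibitors and latent TGF-beta handling. It was 31.8% for signalling from bound integrins, 25.0% for other integrin genes, 18.2% for membrane partners and 0.0% for ligands. Of all genes tested 15.3% were called, 7.02% higher and 8.31% lower. The lists were chosen with earlier results of these data known, so these shares are descriptions only. Genes that open integrins from inside the cell were 21 in all, of which 18 were tested, 2 rose and 4 fell. Evl, an actin regulator of the Ena/VASP family, fell to 55.6, 59.7 and 55.8 FPKM in Bach2-cKO, against 117.4, 113.1 and 112.1 FPKM in WT (log2 fold change -0.99, limma adjusted p = 0.000168). Rassf5, which encodes RAPL, a RAP1 effector that activates LFA-1, fell by 0.50 on the log2 scale. Fyb, the adaptor ADAP, fell by 0.68 and Stk4, the kinase MST1 that acts with RAPL, by 0.37. Rap1a, a GTPase of the pathway, rose by 0.24 and the adaptor gene Skap2 by 0.39. Tln1 (talin), the most abundant, was at 554.2 ± 21.4 FPKM in Bach2-cKO and 517.8 ± 26.9 FPKM in WT (SD, n = 3 each; limma adjusted p = 0.364). The 2 rises became 0 without Bach2-cKO replicate 1 or 2 or WT replicate 1 or 2, and 1 without WT replicate 3.

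All 12 genes that restrain integrins were tested, of which 1 rose and 3 fell. Cytip, which holds back the LFA-1 activator cytohesin-1, fell by 0.42 on the log2 scale (limma adjusted p = 0.00487), Rasa3, a GTPase-activating protein for RAP1, by 0.31, and the adaptor gene Dok2 by 0.32. Rap1gap, which switches RAP1 off, rose and was at 7.62, 9.87 and 3.65 FPKM in Bach2-cKO, against 1.38, 2.13 and 2.47 FPKM in WT (limma adjusted p = 0.0254). Without Bach2-cKO replicate 2, WT replicate 1 or WT replicate 2 the list had 1 fall, and the rise was not called without Bach2-cKO replicate 1 or 2 or WT replicate 1 or 2. Cytip was the most abundant of these genes.

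Of 26 genes that carry signals from bound integrins, 22 were tested, 3 rose and 4 fell. Nedd9, a docking protein of lymphocytes, rose by 0.60, the tensin gene Tns3 by 0.60 and the kinase gene Ptk2b by 0.19 on the log2 scale. Pak1 fell to 1.31, 1.06 and 1.18 FPKM in Bach2-cKO, against 3.94, 4.46 and 3.11 FPKM in WT. Actn1, an actin cross-linker, fell by 0.76, Tns1 by 0.45 and the kinase gene Fyn by 0.32. Actn4, the most abundant over all 6 libraries but below Fyn in WT, was at 178.8 ± 10.5 FPKM in Bach2-cKO and 181.9 ± 2.44 FPKM in WT (SD, n = 3 each). The 3 rises became 1 without Bach2-cKO replicate 1 or 2 or WT replicate 2 or 3, and the 4 falls became 2 without Bach2-cKO replicate 1 or 2 or WT replicate 1.

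Integrin ligands were mostly weak in these cells, with 5 of 16 tested and 0 called (limma; 0 had an unadjusted p under 0.05, and limma-voom called 0). With no filter 12 ligands were tested and 1 rose. Icam2, the most abundant over all 6 libraries, had 48.1, 57.4 and 59.3 FPKM in Bach2-cKO, against 62.1, 71.2 and 55.1 FPKM in WT. Icam1 averaged slightly more than Icam2 in Bach2-cKO and less in WT (55.6 FPKM in Bach2-cKO and 54.3 FPKM in WT). Cdh1, which encodes E-cadherin, the ligand of alpha-E beta-7, was at most 0.257 FPKM in Bach2-cKO and 0.0731 FPKM in WT and was not tested. Of 11 membrane partners of integrins, all tested, 2 rose and 0 fell (limma; 0 had an unadjusted p under 0.05 with a lower value, and limma-voom gave 0 falls). Slc3a2, the CD98 heavy chain that binds beta chain tails, had 251.9, 270.5 and 326.9 FPKM in Bach2-cKO, against 204.6, 207.4 and 177.9 FPKM in WT (limma adjusted p = 0.0183), and Cd47 rose by 0.27 on the log2 scale. Cd37, a tetraspanin of lymphocytes and the most abundant of the 11, was at 515.1 ± 49.4 FPKM in Bach2-cKO and 460.4 ± 35.6 FPKM in WT (SD, n = 3 each; limma adjusted p = 0.279). These 2 rises became 0 without WT replicate 1 or 3 and 1 without any of Bach2-cKO replicates 1 and 2 and WT replicate 2.

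**Figure D5:**
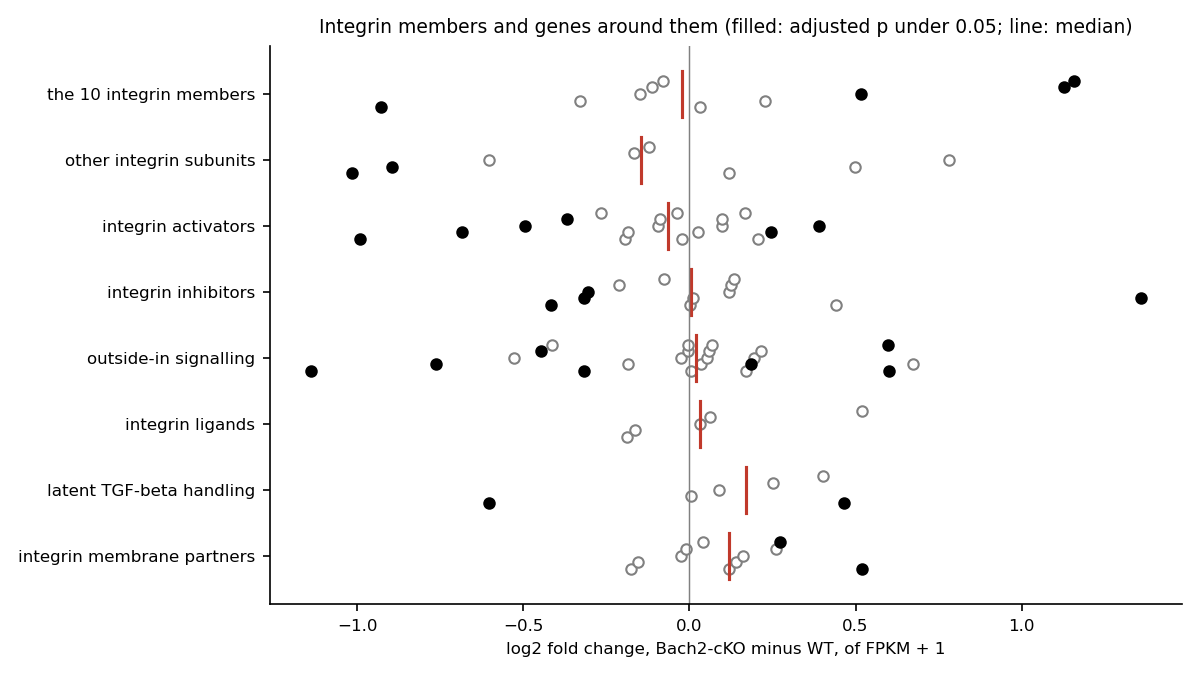
Log2 fold change (Bach2-cKO minus WT, of FPKM + 1) of each tested gene in 8 lists, with filled points for an adjusted p under 0.05 and a red line at each list's median; vertical offsets within a list only part the points. Medians lie between -0.15 and 0.17, and called genes stand on both sides of 0 in 5 of the 8 lists.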

How the data were processed

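Poly(A) RNA was sequenced from 6 libraries, 3 Bach2-cKO and 3 WT. The submitters' processing notes name the build mm9 and the tools featureCounts 1.5.0-p3 and HISAT2 2.0.5, while settings, strandedness and annotation are not stated there. The authors deposited FPKM per gene. Positions of 9 of the 10 integrin genes equal those of GENCODE M21 (GRCm38), which is therefore the build of the coordinates given. Whole reads were recovered from the FPKM steps: at a tolerance of 0.001 reads all 28530 genes above 0 gave whole reads, 78.2% of genes with several isoforms at the rounded mean isoform length, so weak short isoforms in the annotation raise a gene's FPKM. Because FPKM is relative to library size, a large change in a few genes shifts all others. A floor of 3 reads equals 0.0684 to 0.108 FPKM at 1 kb of length. Replicates of a group differed by more than counting noise (chi-square per degree of freedom between 9.68 and 21.8).

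A gene was tested if 3 or more libraries had 1 FPKM or more, by limma 3.58.1 (mean-variance trend, R 4.3.3) on log2 of FPKM plus a pseudocount of 1, Bach2-cKO minus WT, two-sided, with Benjamini-Hochberg adjustment over 13766 genes and a threshold of 0.05. The plan named a count test for the case that counts were given, which they were not. Reads of the 13766 genes were simulated with 1 dispersion (spread beyond counting noise) for all genes, the median of the data, 0.00566. Of 50 genes per fold size the test recovered 5 at 1.25-fold, 33 at 1.5-fold, 47 at 2-fold and all 50 at 4-fold, and called 11 unchanged genes. Genes with a wider spread than this median would be recovered less often, so these counts do not give the power for single integrin genes. Ratios between chains were compared by exact permutation over libraries. Named genes were all integrin members, up to 4 called genes with the smallest p in each direction per list, the most abundant gene per list, and the 4 genes most like the largest rise and the largest fall; further genes, such as Itgax, Itgam, Cdh1 and Haspin, were named after their values were seen. Integrin members and lists were chosen with earlier results of these data known. Alternatives were median-ratio scaling, quantile normalization, a pseudocount of 0.1, no filter or a filter at 5 FPKM, limma-voom on the recovered reads, the replicate number as a block, a covariate for the B cell marker level and leaving out each library; the lists under these settings and the longest isoform as length were added after the data were seen. Python 3.11.15 with Matplotlib 3.10.9 drew the figures.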

Additional observations from a re-analysis of the deposited data

How the results depend on the processing

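The calls on the integrin genes, 3 higher and 1 lower, were the same counts under median-ratio scaling, quantile normalization, a pseudocount of 0.1, no filter, a filter at 5 FPKM, limma-voom and each left-out library (3 to 3 higher and 1 to 1 lower). With the replicate number as a block they were again 3 and 1. The deviations of same-numbered libraries from their group means correlated at -0.0526, 0.00578 and -0.215 across genes for numbers 1, 2 and 3, so the numbers were not taken to pair samples. With the covariate for B cell marker level 0 were lower in limma (3 were higher), since Itga2b was not called. Over all genes that covariate left 94 higher and 101 lower. The covariate was higher in every Bach2-cKO library than in every WT library, so its part and that of genotype cannot be told apart. Signs turned only among genes with no call: with the B cell score Itgb8 was at 0.11 and Itgb7 at 0.011, and with 1 library left out Itgb8 ranged from -0.218 to 0.0279 and Itgal from -0.0273 to 0.0694; the cause was not tested. Over all genes the calls, 967 higher and 1144 lower, became 625 and 657 with the block, 501 and 681 with no filter, and as few as 485 (without Bach2-cKO replicate 2) and 511 (without WT replicate 1). Of the 8 chain ratios none changed sign with 1 FPKM added or with any library left out. In the 7 other lists calls are few: with the B cell covariate 1 of them, a fall among the activators, was made, and with the block 2 rises and 10 falls, against 9 rises and 14 falls as reported. With 3 libraries a group, changes below 1.5-fold were mostly not called on reads simulated at the median dispersion, and the weakest gene, Itga2b, rested on as few as 91 reads.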
